A study of Mus musculus with 12 samples.

Results

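Genes of the endoplasmic reticulum (ER), the compartment where secreted proteins are folded, were followed in the mammary gland of pregnant mice. The set held 36 genes of the 21956 protein-coding genes in the deposited tables: 11 chaperones and co-chaperones, 4 disulfide isomerases, 3 genes of the stress sensors and their transcription factor, 7 genes of ER-associated degradation, and 11 genes of the translocon and signal peptidase. They were chosen by gene symbol as known parts of this machinery, and all 36 were found and passed the minimum mean level of 1 FPKM (fragments per kilobase of transcript, scaled to the mapped fragments of the library). RNA was taken on day 17 of pregnancy from the fourth inguinal gland of outbred ICR mice. In the Met-Met group (4 libraries) mice ate, from the start of pregnancy, a diet deficient in methionine and received methionine by intraperitoneal injection, at 35% of the methionine in the control diet, with 25% of the injected amount given as the dipeptide methionyl-methionine. In the Met group (4 libraries) the diet and the injected amount were the same and all of it was methionine. For the Control group (4 libraries) the labels name a control diet and no other treatment. Comparisons with Control therefore cannot separate the methionine amount from the diet or the injection, and both use the same 4 Control libraries. Nothing in the labels states that the libraries come from separate mice, and the p-values therefore reflect the spread among these libraries alone, part of which may be technical.

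Proteins bound for secretion enter the ER through the SEC61 translocon, where signal peptidase removes the signal peptide, chaperones and disulfide isomerases fold them, and misfolded chains are passed back to the cytosol for degradation. When unfolded protein builds up, the unfolded protein response raises genes of this machinery: ATF6 is cut to release a transcription factor, IRE1 (encoded by Ern1) splices the Xbp1 mRNA, and PERK (Eif2ak3) slows translation and favours ATF4. Mammary epithelium builds up its ER before lactation, when it secretes milk proteins in bulk.

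ATF6 and XBP1 act through ER stress elements in promoters, so the promoters of the members were read for them and the matching stretches are shown here for reference beside the expression values. The sequences are from RefSeq on build GRCm38.p6, 250 bases before to 50 after the annotated start, and 28 of the 36 members had one (Hyou1, Manf, Atf6, Derl1, Sec61a1, Ssr2, Spcs3 and Sec11c had none in the table). Motifs were searched on both strands. The ER stress element ERSE (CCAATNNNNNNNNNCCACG) was found in 9 of the 28 members and in 39 of all 32851 promoters (0.119%). The related ERSE-II (ATTGG, any base, then CCACG) was found in Dnajb11 and Herpud1, and in 0.0365% of all promoters. The short end of both elements, CCACG, which is counted again wherever they match, was in 23 of the 28 members and in 32.8% of all promoters. An XBP1 site (TGACGTG), which can share letters with CCACG, occurred in Hspa5 alone among members and in 2.01% of all promoters, and an ATF4 site (TGATGNAA) in Herpud1 alone and in 3.97%. A match is a description of letters and not of binding. Each stretch is written 5′ to 3′ on the strand of its gene, with capitals marking the fixed letters of ERSE or ERSE-II and, in Hspa5, also the XBP1 site, and with 15 bases either side except for Hspa5, shown over the whole 250 bases before its start, and Dnajb11, whose match lies after the start.
Hspa5 (chr2:34771840-34772089, plus strand): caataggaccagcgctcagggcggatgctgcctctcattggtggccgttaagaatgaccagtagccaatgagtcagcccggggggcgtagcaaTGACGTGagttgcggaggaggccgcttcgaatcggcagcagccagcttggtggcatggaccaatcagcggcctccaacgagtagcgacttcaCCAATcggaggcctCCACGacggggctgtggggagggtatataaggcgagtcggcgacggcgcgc
Hsp90b1 (chr10:86705518-86705671, minus strand): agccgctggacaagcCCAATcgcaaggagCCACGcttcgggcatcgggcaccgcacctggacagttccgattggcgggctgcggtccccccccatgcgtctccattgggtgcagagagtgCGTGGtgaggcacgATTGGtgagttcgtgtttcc
Calr (chr8:84847060-84847108, minus strand): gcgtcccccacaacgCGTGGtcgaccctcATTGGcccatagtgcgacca
Canx (chr11:50325785-50325833, minus strand): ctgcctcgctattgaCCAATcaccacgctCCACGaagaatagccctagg
Dnajb11 (chr16:22857837-22857874, plus strand): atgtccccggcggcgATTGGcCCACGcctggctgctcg
Dnajc3 (chr14:118937812-118937860, plus strand): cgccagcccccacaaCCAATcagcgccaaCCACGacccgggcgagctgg
Creld2 (chr15:88819505-88819553, plus strand): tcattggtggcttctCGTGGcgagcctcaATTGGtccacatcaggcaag
Pdia6 (chr12:17266476-17266524, plus strand): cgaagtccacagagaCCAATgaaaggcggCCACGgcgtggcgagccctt
Herpud1 (chr8:94386362-94386402, plus strand): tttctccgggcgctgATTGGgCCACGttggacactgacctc
Syvn1 (chr19:6046517-6046565, plus strand): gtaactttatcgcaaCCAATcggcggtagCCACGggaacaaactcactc
Derl3 (chr10:75893227-75893275, plus strand): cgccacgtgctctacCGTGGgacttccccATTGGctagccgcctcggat

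Reading the labels against marker genes, every library was mammary: the 8 milk protein genes held 34.1% to 42.4% of the summed FPKM in Met-Met, 41.7% to 48.8% in Met and 25.5% to 41.4% in Control. Libraries differed in other cell types in ways the labels do not give. The mean of 10 B cell markers, on the log2(scaled FPKM + 1) scale, was 1.27 and 1.25 in Met-Met 1 and 3, 1.28 in Met 4 and 2.45 to 2.93 in Control 1 to 3, against 0.07 to 0.28 in the other 6 libraries, where Pax5, Blk, Fcrla or Fcer2a were at 0 in some. Their summed level was 0.956 to 15.8 scaled FPKM in Met-Met, 1.1 to 16.8 in Met and 0.498 to 77.7 in Control. Met 2 held skeletal muscle RNA (marker mean 4.88, at most 0.75 elsewhere). Met-Met 2, Met 3 and Met 4 are known from an earlier look at these data to hold a high level of the noncoding RNA Gm26917. Its level is not shown here, and it serves only to pick these libraries for a fit without them. The adipocyte marker mean over 10 genes was 5.07 to 6.46 in Met-Met, 6.21 to 6.54 in Met and 7.23 to 7.42 in Control, so it was below every Control library in all 8 others (summed level 1110 to 2550, 1980 to 2540 and 3170 to 3800 scaled FPKM), and that of the luminal epithelium was 6.44 to 6.60, 6.08 to 6.52 and 6.34 to 6.59. Fibroblast and matrix markers were lowest in Met, with means of 6.21 to 6.79 in Met-Met, 5.63 to 5.87 in Met and 6.53 to 6.93 in Control, as were myoepithelial markers at 5.18 to 5.28, 4.65 to 4.85 and 5.06 to 5.31 (8 genes each, none at 0; summed levels 1080 to 1610, 625 to 796 and 1370 to 1800 scaled FPKM, and 465 to 539, 292 to 354 and 501 to 583). Their part in the results for Met was not tested. In a whole gland, fewer cells of a type and less RNA per cell cannot be told apart.

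Many of the ER genes were higher in each methionine group than in Control. Levels are FPKM summed over each gene's transcripts and scaled between libraries, each fold change is a difference of log2(FPKM + 1), a scale on which low genes appear to change less than they do, and a gene was called when limma gave a Benjamini-Hochberg adjusted p under 0.05 across the 11809 genes tested. In Met-Met, 22 of the 36 members rose and 0 fell against Control, where 10.8% of all genes tested were called higher and 9.4% lower. In Met, 19 rose and 0 fell, against 13.6% and 14.8% of all genes. The median log2 fold change of the members was 0.64 in Met-Met and 0.54 in Met, beside 0.0 and 0.01 for all genes. Between Met-Met and Met directly, 1 member (Derl1) was called higher and 0 lower, against 5.94% and 5.66% of all genes. In that comparison 11 of the 36 members had an unadjusted p under 0.05, beside 3358 of the 11809 genes tested. The count of calls depended on a single Met library, described further on.

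The scaling between libraries bore on these counts, above all in Met. Without any scaling the median log2 fold change over all genes was −0.12 in Met-Met and −0.25 in Met against Control, 4.23% of all genes were called higher and 13.4% lower in Met-Met, and 2.98% higher and 36.4% lower in Met. The members then had medians of 0.51 and 0.22, with 15 higher in Met-Met and 8 higher in Met, where Edem1 fell. The calls lost were those of Hspa5, Sel1l, Derl1, Derl2, Sec61b, Ssr3 and Spcs3 in Met-Met (adjusted p = 0.0512 to 0.303) and of Hsp90b1, Calr, Canx, Pdia3, Pdia4, Xbp1, Sel1l, Sec61a1, Sec61b, Ssr1 and Spcs1 in Met (adjusted p = 0.0545 to 0.657). With quantile normalization, which left the median of all genes at 0.03 in both, the member medians were 0.46 and 0.31. Derl1, Derl2, Ssr3 and Spcs3 were then lost in Met-Met (adjusted p = 0.0514 to 0.128), and Hsp90b1, Calr, Pdia3, Pdia4, Xbp1, Sec61a1 and Ssr1 in Met (adjusted p = 0.0765 to 0.363).

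Counted by library, every Met-Met library lay above every Control library for 27 of the 36 members (15.1% of all genes), and every Met library lay above every Control library for 13 (13.5%). The 36 members together took 0.751% to 0.891% of the summed FPKM in Met-Met, 0.455% to 0.848% in Met and 0.507% to 0.573% in Control. Met 4 was at 0.848%, while Met 1 to 3 lay between 0.455% and 0.59%. These shares use no scaling between libraries, and all 4 Met-Met shares lay above all 4 Control shares.

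**Figure D1:**
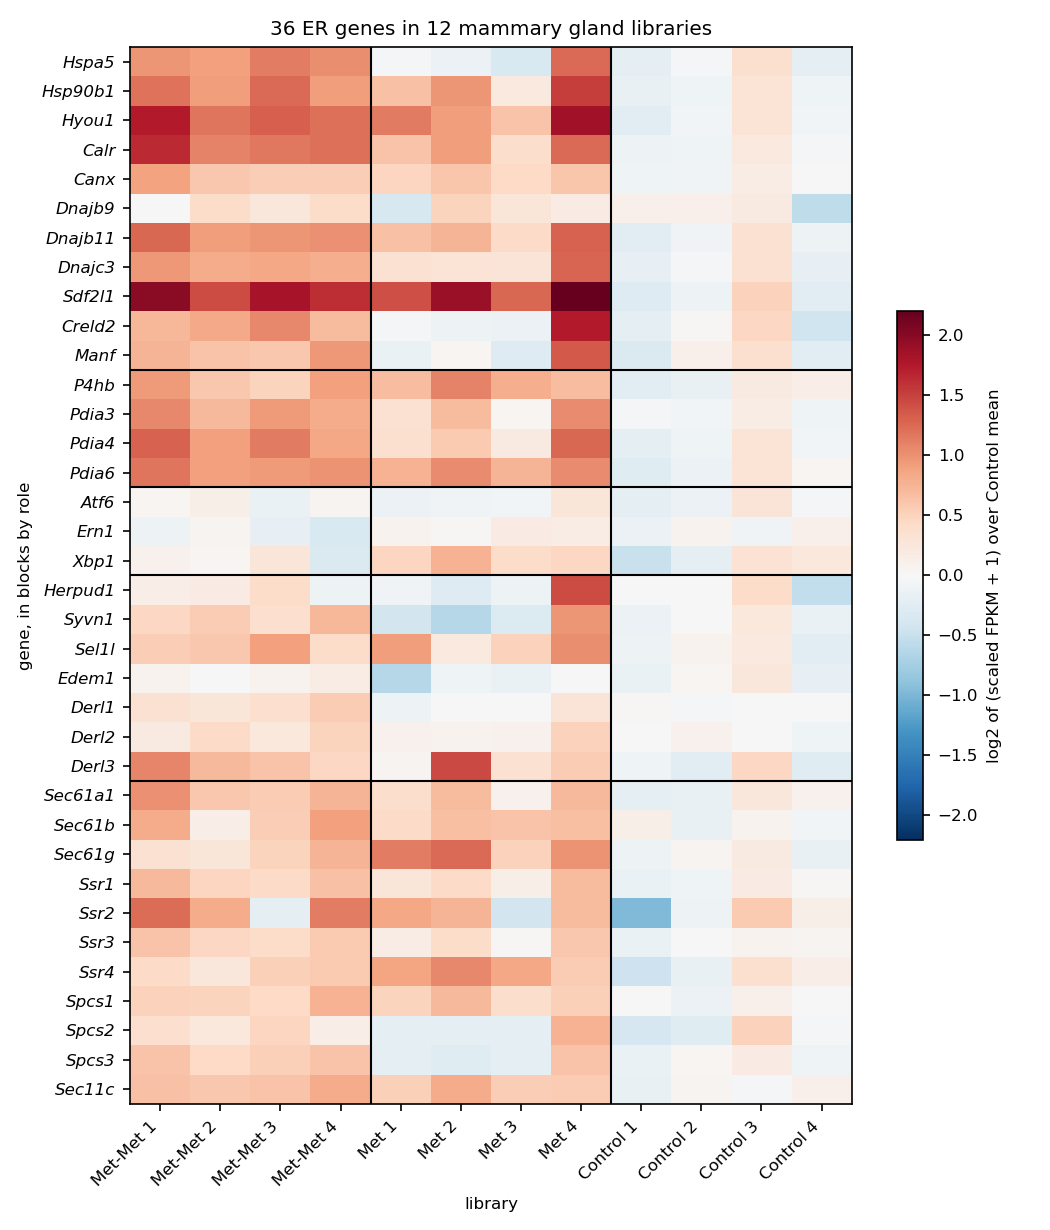
Heat map of the 36 ER genes (vertical axis, in blocks by role) in the 12 libraries (horizontal axis), coloured by log2(scaled FPKM + 1) minus the mean of the 4 Control libraries. The Met-Met columns are red for most chaperones and isomerases, Met 4 resembles them for Hspa5, Creld2 and Manf (488, 46.5 and 107 scaled FPKM), and Met 1 to 3 stay near the Control columns for those genes.

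Fits that allowed for library composition gave different counts. With the mean of B cell, plasma cell, luminal or milk protein markers as a covariate, 20 to 26 members were called against Control in Met-Met and 15 to 17 in Met. When the 6 libraries with B cell markers were left out, 1 Control library (Control 4) remained, whose spread was taken to equal that of the other groups. limma then called 0 members against Control in either group. Few genes of any kind were called: 0.0254% higher and 0.0169% lower in Met-Met, and 0.0423% higher and 0.0254% lower in Met. In the same fit 5 members were higher in Met-Met than in Met, where 1.98% of all genes were called higher and 1.83% lower. The median log2 fold change of the members was then 0.65 in Met-Met and 0.44 in Met. With the adipocyte marker mean as a covariate, 0 members and 0 of all genes were called in Met-Met (10 members and 1318 genes at an unadjusted p under 0.05). For the Met group, 4 members were called higher, beside 147 higher and 99 lower of all genes. The member medians were 0.72 in Met-Met and 0.4 in Met. The adipocyte mean was lower in every library of the methionine groups than in every Control library. This covariate therefore largely follows the contrast with Control. The fit cannot separate adipocyte markers from group, and no conclusion is drawn from its counts. Without the 3 libraries high in Gm26917, 24 members rose and 0 fell in Met-Met (9.35% and 6.44% of all genes), and 14 rose and Syvn1 fell in Met (10.2% and 9.76%). In that fit 6 members were higher and Sec61g was lower in Met-Met than in Met (3.53% and 4.17% of all genes).

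**Figure D2:**
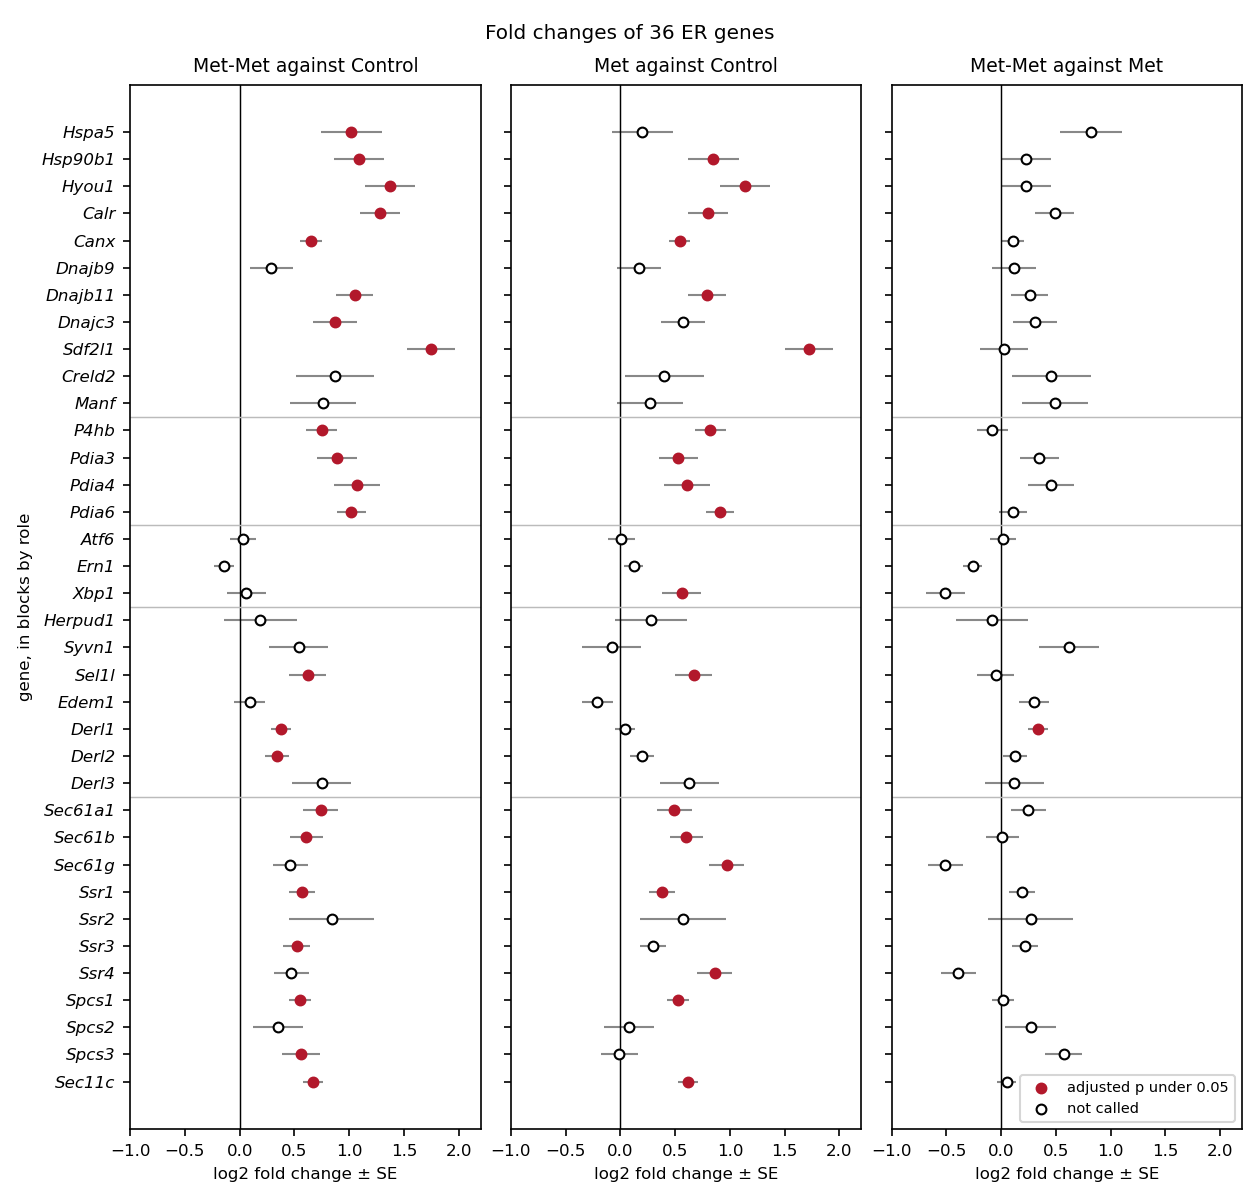
Log2 fold change (horizontal axis) of each of the 36 ER genes (vertical axis, in blocks by role) in the 3 comparisons, with bars of 1 standard error and filled points for adjusted p under 0.05. Chaperones and isomerases lie furthest to the right in Met-Met against Control, led by Sdf2l1 at 1.75, and Atf6 lies near 0 in every panel (0.01 to 0.03).

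Among the 11 chaperones and co-chaperones, 8 rose in Met-Met and 6 in Met (10.8% and 13.6% of all genes), and 0 fell in either. Sdf2l1, which works with BiP and its J-domain partners to keep client proteins soluble, changed most. It stood at 61.8, 41.6, 54.3 and 47.5 scaled FPKM in Met-Met libraries 1 to 4, 41.0, 57.5, 36.7 and 70.8 in Met libraries 1 to 4, and 12, 13.6, 21.3 and 12.2 in Control libraries 1 to 4. Every library of both methionine groups was above every Control library. The log2 fold change was 1.75 ± 0.22 (standard error; adjusted p = 7.33e-04) in Met-Met and 1.72 ± 0.22 (adjusted p = 4.24e-04) in Met.

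Hspa5 encodes BiP, the main Hsp70 chaperone of the ER and the usual gauge of the unfolded protein response. Its levels were 405, 388, 449 and 418 in Met-Met, 199, 189, 163 and 488 in Met, and 178, 202, 264 and 180 in Control. All Met-Met libraries were above all Control libraries, while Met 1 to 3 lay within or below the Control range and Met 4 was the highest of the 12. Hspa5 rose by 1.02 ± 0.28 in Met-Met (adjusted p = 0.0235), a call lost on leaving out any of Control 1, Control 2, Met-Met 3 or Met-Met 4 (adjusted p = 0.0518 to 0.0678) and with FPKM as deposited. It was not called in Met against Control (0.2 ± 0.28, adjusted p = 0.627) or in Met-Met against Met (0.82 ± 0.28, adjusted p = 0.0742), although with FPKM as deposited and with quantile normalization Met-Met was called higher than Met.

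Hyou1, a large Hsp70-like protein that helps BiP exchange its nucleotide, stood at 82.7, 55.8, 61.8 and 56.9 in Met-Met, 54.3, 46.5, 37.6 and 89.0 in Met, and 20.4, 23.1, 29.8 and 23.1 in Control. Both methionine groups were clear of Control, and it rose by 1.37 ± 0.23 in Met-Met (adjusted p = 0.00241) and 1.14 ± 0.23 in Met (adjusted p = 0.00385). Calreticulin, encoded by Calr, a soluble chaperone that binds monoglucosylated glycans, was at 723, 492, 519 and 537 in Met-Met, 359, 436, 301 and 547 in Met, and 214, 217, 270 and 224 in Control. Its groups also did not overlap with Control, with log2 fold changes of 1.28 ± 0.18 in Met-Met (adjusted p = 0.0011) and 0.8 ± 0.18 in Met (adjusted p = 0.00703). In Met the value was 0.48 with FPKM as deposited (adjusted p = 0.0545) and 0.47 with quantile normalization (adjusted p = 0.0765).

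Calnexin (Canx), the membrane-bound relative of calreticulin, changed less, at 211, 173, 167 and 166 in Met-Met, 158, 174, 154 and 174 in Met, and 106, 108, 127 and 114 in Control. The separation from Control was complete in both groups, and it rose by 0.65 ± 0.1 in Met-Met (adjusted p = 0.00153) and 0.54 ± 0.1 in Met (adjusted p = 0.0023). Dnajb11, a J-domain partner of BiP that binds unfolded clients, was at 83.5, 65.8, 67.6 and 69.3 in Met-Met, 53.7, 58.1, 46.3 and 85.3 in Met, and 29.0, 32.5, 43.6 and 31.6 in Control. No library of either group fell within the Control range, and the gene rose by 1.05 ± 0.17 (adjusted p = 0.00244) in Met-Met and 0.79 ± 0.17 (adjusted p = 0.00661) in Met.

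Hsp90b1, the ER member of the Hsp90 family, rose in both groups (1.09 ± 0.23, adjusted p = 0.00757, in Met-Met and 0.85 ± 0.23, adjusted p = 0.0168, in Met), although Met 3 at 235 lay below the highest Control library at 252, and the call in Met was lost without Control 1 (adjusted p = 0.0501). Dnajc3, a J-domain partner of BiP also known as an inhibitor of PERK, rose in Met-Met (0.87 ± 0.2, adjusted p = 0.0121). In Met it missed the threshold (0.57 ± 0.2, adjusted p = 0.0533) and was called on leaving out Control 3 or Met 2 (adjusted p = 0.036 to 0.0496). Dnajb9, a J-domain partner of BiP that also restrains IRE1, was at 18.5, 24.6, 22.1 and 24.5 in Met-Met, 14.1, 26.2, 22.3 and 20.8 in Met, and 19.9, 20.0, 21.3 and 12.2 in Control. The 3 groups overlapped and no comparison called it (adjusted p = 0.308 and 0.552 against Control).

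**Figure D3:**
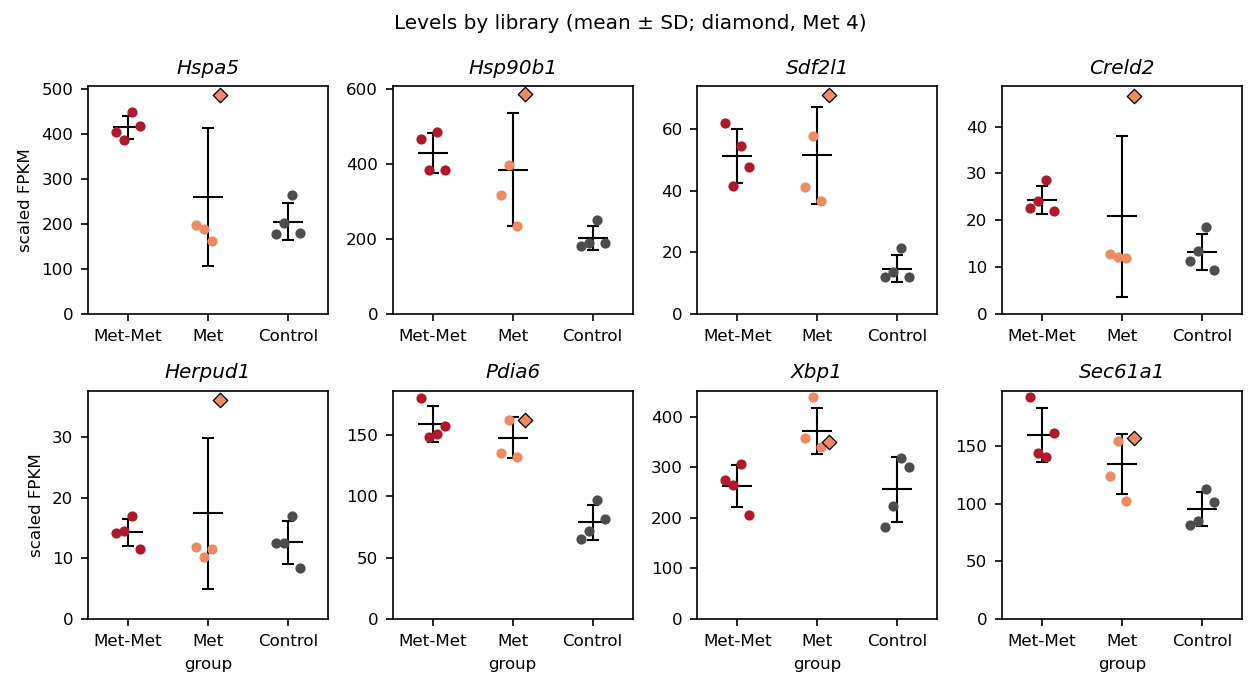
Scaled FPKM (vertical axis) of 8 ER genes in each library by group, with the mean and SD of 4 libraries and Met 4 drawn as a diamond. For Hspa5, Creld2 and Herpud1 the other Met libraries sit at the Control level (163 to 199, 12 to 12.8 and 10.2 to 11.9), while for Sdf2l1 and Pdia6 all Met libraries lie above Control.

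All 4 disulfide isomerases, which form and rearrange disulfide bonds, were called higher in both groups (10.8% of all genes in Met-Met, 13.6% in Met). Pdia6 was at 180, 148, 151 and 157 in Met-Met, 135, 162, 132 and 162 in Met, and 64.9, 71.6, 97.0 and 81.1 in Control. It rose by 1.02 ± 0.13 (adjusted p = 6.73e-04) in Met-Met and 0.91 ± 0.13 (adjusted p = 6.42e-04) in Met, without overlap. P4hb, the classical protein disulfide isomerase and a subunit of prolyl 4-hydroxylase, was at 440, 346, 323 and 429 in Met-Met, 367, 490, 397 and 365 in Met, and 195, 204, 263 and 252 in Control. It rose by 0.75 ± 0.14 in Met-Met (adjusted p = 0.00473) and 0.82 ± 0.14 in Met (adjusted p = 0.00192), again with no overlap with Control.

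Pdia3, the partner of calnexin and calreticulin, was at 252, 198, 231 and 213 in Met-Met, 152, 196, 124 and 249 in Met, and 118, 115, 135 and 113 in Control. The Met-Met libraries were clear of Control (0.89 ± 0.18, adjusted p = 0.00611), whereas Met 3 lay inside the Control range (0.53 ± 0.18, adjusted p = 0.0417). Pdia4, another member of the family, was at 129, 97.5, 116 and 94.4 in Met-Met, 65.9, 77.7, 59.6 and 125 in Met, and 44.4, 48.4, 64.2 and 49.8 in Control. It followed Pdia3 in rising by 1.07 ± 0.21 in Met-Met (adjusted p = 0.005) and 0.61 ± 0.21 in Met (adjusted p = 0.0438), with Met 3 again inside the Control range. The Met calls were fragile for both genes: Pdia3 was not called without any of Control 1, Control 2, Control 4, Met 2, Met 4, Met-Met 3 or Met-Met 4 (adjusted p = 0.0517 to 0.0947), and Pdia4 not without those or Met-Met 2 (adjusted p = 0.0517 to 0.116).

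The sensors themselves did not pass the test. Atf6 was at 10.1, 10.8, 8.8 and 10.2 in Met-Met, 8.84, 9.19, 9.33 and 11.9 in Met, and 8.44, 8.88, 12.2 and 9.62 in Control. Ern1 was at 5.43, 6.26, 5.12 and 4.51 in Met-Met, 6.37, 6.13, 6.93 and 6.76 in Met, and 5.34, 6.35, 5.6 and 6.57 in Control. Their log2 fold changes against Control ran between −0.14 and 0.12 with standard errors of 0.12 for Atf6 and 0.09 for Ern1 (adjusted p = 0.313 to 0.967), and the groups overlapped. In Met-Met against Met, Ern1 was at −0.26 ± 0.09 (adjusted p = 0.0947) and Atf6 at 0.02 ± 0.12 (adjusted p = 0.926).

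Xbp1, whose spliced mRNA encodes the transcription factor made on IRE1 activation, ran the other way from Hspa5 between the methionine groups. It was at 274, 264, 307 and 206 in Met-Met, 357, 438, 339 and 350 in Met, and 182, 224, 318 and 301 in Control. Every Met library was above every library of both other groups, and Met-Met and Control overlapped throughout. Xbp1 rose in Met against Control (0.56 ± 0.18, adjusted p = 0.0351), a call lost without any of Control 1, Control 2, Met 1, Met 2 or Met 3 (adjusted p = 0.0517 to 0.101) and in 15 of 30 alternative fits in all. It was not called in Met-Met against Control (0.06 ± 0.18, adjusted p = 0.857) or in Met-Met against Met (−0.51 ± 0.18, adjusted p = 0.0855), where it was the 1 member with every Met-Met library below every Met library (7.81% of all genes). A single annotated transcript held 91.5% to 95.1% of the Xbp1 FPKM in every library. The splicing of its mRNA by IRE1 was not analysed here.

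In ER-associated degradation, 3 of 7 members rose in Met-Met and 1 in Met. Of all genes tested, 10.8% rose in Met-Met and 13.6% in Met, so the Met count lay near the share of all genes. Sel1l, the scaffold of the HRD1 ubiquitin ligase, was at 18.8, 19.6, 24.6 and 17.2 in Met-Met, 24.8, 14.9, 18.4 and 26.7 in Met, and 11.6, 13.5, 14.9 and 10.7 in Control. It rose by 0.62 ± 0.17 in Met-Met (adjusted p = 0.0268), a call lost without any of Control 1, Control 2, Control 4, Met-Met 2 or Met-Met 3 (adjusted p = 0.0533 to 0.074), and by 0.67 ± 0.17 in Met (adjusted p = 0.0145), where Met 2 overlapped Control 3 at 14.9.

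Derl1, a membrane protein through which misfolded chains leave the ER, was at 30.2, 28.7, 30.8 and 35.5 in Met-Met, 21.9, 23.5, 23.7 and 29.2 in Met, and 24.3, 23.2, 24 and 23.5 in Control. Met-Met was clear of Control (0.38 ± 0.09, adjusted p = 0.0152), and Met 4 alone of the Met libraries reached the Met-Met range. Derl1 was the 1 member called in Met-Met against Met (0.34 ± 0.09, adjusted p = 0.0349), and that call was lost on leaving out any of 9 libraries (Control 1 to 3, Met 1 to 3, Met-Met 1, 3 and 4; adjusted p = 0.0504 to 0.1). Its relative Derl2 was at 12.5, 14.8, 12.9 and 15.6 in Met-Met, 11.7, 11.5, 11.7 and 15.9 in Met, and 10.7, 11.7, 10.8 and 10.1 in Control. Derl2 rose in Met-Met only just past the threshold (0.34 ± 0.11, adjusted p = 0.0476), and lost the call without any 1 of 10 libraries (all but Met 2 and Met 4; adjusted p = 0.0524 to 0.125).

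The other 4 degradation genes were not called in any comparison. Derl3, a derlin known from secretory cells, was the lowest member, at 1.57 to 7.37 scaled FPKM over the 12 libraries, with Met 2 highest. Edem1, which recognises misfolded glycoproteins for disposal, was at 21.0, 20.0, 21.0 and 22.4 in Met-Met, 12.5, 18.5, 17.8 and 20.0 in Met, and 17.9, 20.5, 23.8 and 17.4 in Control. It was the 1 member with every Met-Met library above every Met library (8.43% of all genes), by a small margin, and its adjusted p there was 0.168. Herpud1 and Syvn1 are described with Met 4.

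Of the 11 translocon and signal peptidase genes, 7 rose in each methionine group (10.8% of all genes in Met-Met, 13.6% in Met) and 0 fell. Sec11c, a catalytic subunit of signal peptidase, was at 140, 135, 139 and 158 in Met-Met, 129, 159, 131 and 133 in Met, and 79.9, 93.4, 88.3 and 96.6 in Control. The groups were far apart relative to their spread, with rises of 0.67 ± 0.09 in Met-Met (adjusted p = 0.00109) and 0.62 ± 0.09 in Met (adjusted p = 9.02e-04). Spcs1, an accessory subunit of the same enzyme, was at 78.5, 76.8, 74.7 and 93.7 in Met-Met, 77.1, 90.3, 71.9 and 79.2 in Met, and 54.1, 50.1, 59.3 and 55.1 in Control. It rose by 0.55 ± 0.1 in Met-Met (adjusted p = 0.00291) and 0.53 ± 0.1 in Met (adjusted p = 0.00233), without overlap.

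Sec61a1 forms the pore of the translocon. It was at 192, 144, 140 and 161 in Met-Met, 124, 154, 102 and 157 in Met, and 81.6, 84.6, 113 and 101 in Control. Met-Met was clear of Control (0.74 ± 0.16, adjusted p = 0.00784), while Met 3 overlapped it (0.49 ± 0.16, adjusted p = 0.0357), and the Met call was lost without any of Control 1, Control 2, Met 1, Met 2 or Met 4 (adjusted p = 0.0575 to 0.104). Sec61b, a small subunit of the channel, was at 189, 118, 156 and 201 in Met-Met, 144, 170, 166 and 170 in Met, and 117, 96.0, 113 and 102 in Control. Both groups lay above Control, Met-Met 2 by the narrowest margin, and it rose by 0.61 ± 0.15 in Met-Met (adjusted p = 0.015) and 0.6 ± 0.15 in Met (adjusted p = 0.0113).

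Sec61g, the other small subunit, was at 53.0, 50.3, 59.2 and 71.0 in Met-Met, 92.5, 101, 59.6 and 84.0 in Met, and 38.8, 43.6, 48 and 37.1 in Control. It rose in Met (0.97 ± 0.16, adjusted p = 0.00144) and missed the threshold in Met-Met (0.46 ± 0.16, adjusted p = 0.0587), where it was called without Met 2 or Met 3 (adjusted p = 0.0239 to 0.0481). Ssr4, a subunit of the translocon-associated complex TRAP, was at 210, 187, 227 and 236 in Met-Met, 287, 327, 284 and 232 in Met, and 114, 140, 202 and 174 in Control. It too rose in Met (0.86 ± 0.16, adjusted p = 0.00325) and was not called in Met-Met (0.47 ± 0.16, adjusted p = 0.0628), which overlapped Control, except without Control 3 (adjusted p = 0.0259). Neither gene was called between the methionine groups (−0.51 ± 0.16, adjusted p = 0.0589, for Sec61g and −0.39 ± 0.16, adjusted p = 0.142, for Ssr4), although Sec61g was without Met 3 (adjusted p = 0.0175). The level of Sec61g is less certain, since a minor transcript held 18.9%, 10.8% and 26.3% of its FPKM in Met 1, 2 and 4. That transcript held at most 3.25% in any other library.

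Among the rest of this role, the TRAP subunits Ssr1 (0.57 ± 0.12, adjusted p = 0.00942) and Ssr3 (0.52 ± 0.12, adjusted p = 0.0106) rose in Met-Met. Ssr1 also rose in Met (0.38 ± 0.12, adjusted p = 0.0389), a call lost without any of Control 1, Control 2, Control 4, Met 1, Met 2 or Met 4 (adjusted p = 0.0512 to 0.108). The signal peptidase subunit Spcs3 rose in Met-Met (0.56 ± 0.17, adjusted p = 0.0384), a call lost without any of Control 1, Control 2, Control 4 or the 4 Met-Met libraries (adjusted p = 0.0562 to 0.105). Ssr2 and Spcs2 were not called. Their FPKM moved between annotated transcripts from library to library, with the most abundant Ssr2 transcript at 17.3% to 95.3% of its gene and that of Spcs2 at 15.2% to 99.3%, so their levels are uncertain.

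A single library, Met 4, stood apart from Met 1 to 3 in these genes. The members described for it were chosen after their values were seen. Creld2, an ER stress protein thought to aid disulfide formation, was at 46.5 in Met 4 and at 12.8, 12.1 and 12 in Met 1 to 3, beside 22.6, 24.2, 28.6 and 22 in Met-Met and 11.4, 13.5, 18.5 and 9.47 in Control. Herpud1, a membrane protein that organises the degradation complex, was at 36.1 in Met 4 and 11.9, 10.2 and 11.6 in Met 1 to 3, beside 14.2, 14.5, 17.0 and 11.6 in Met-Met and 12.6, 12.6, 17.0 and 8.43 in Control. Met 4 thus exceeded every other library for both genes, by 3.83 times the median of Met 1 to 3 for Creld2 and 3.1 times for Herpud1.

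Manf, an ER protein that stabilises BiP with its clients, was at 107 in Met 4 and 37.4, 42.8 and 33.6 in Met 1 to 3, beside 70.1, 64.6, 63.0 and 80.8 in Met-Met and 33.1, 44.6, 53.1 and 34.5 in Control. Syvn1, the HRD1 ubiquitin ligase, was at 33.0 in Met 4 and 12, 10.2 and 13.0 in Met 1 to 3, beside 22.7, 24.6, 21.4 and 27.8 in Met-Met and 14.9, 16.3, 19.4 and 14.6 in Control. Met 1 to 3 lay within the Control range for Manf and below it for Syvn1, Met-Met lay above Control, and Met 4 above Met-Met. Syvn1 is uncertain, since a transcript that averaged 65.1% of its FPKM held 9.34% in Met 3 and 99.6% in Met 2. Met 4 was the highest Met library for 23 of the 36 members (32.5% of all genes) and more than 1.5 times the median of Met 1 to 3 for 15 of them (10.9% of all genes). The median of that ratio was 1.35 over the members and 1.01 over all genes.

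**Figure D4:**
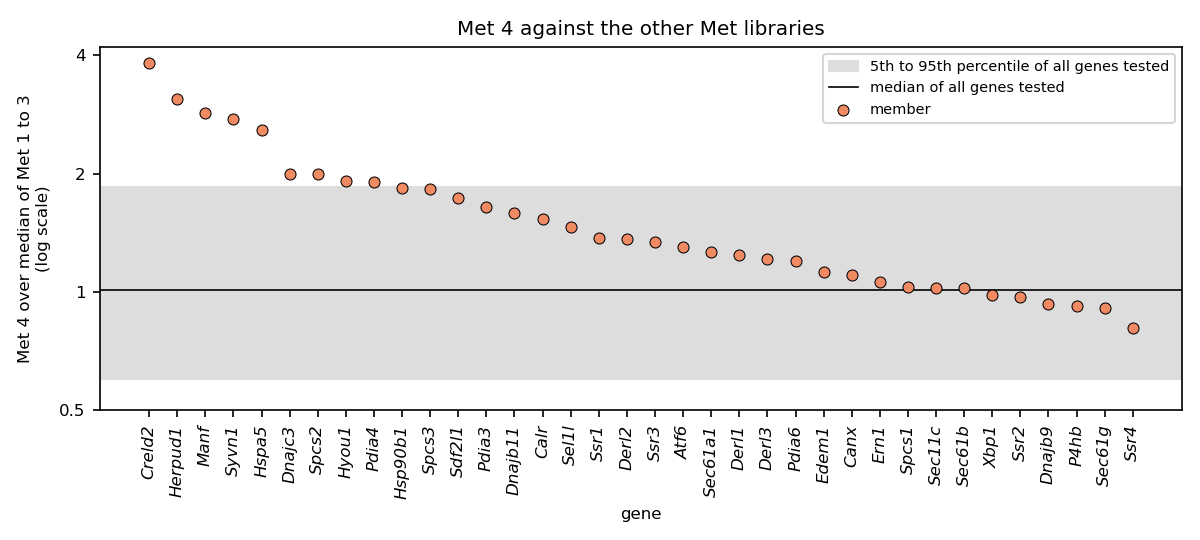
Level in Met 4 divided by the median of Met 1 to 3 (vertical axis, log scale) for each of the 36 ER genes (horizontal axis, sorted), with the median (line) and the 5th to 95th percentile (grey band) of all genes tested. Creld2, Herpud1, Manf, Syvn1 and Hspa5 lie between 2.58 and 3.83, above the band, which reaches 1.85, while Xbp1 (0.981) and P4hb (0.92) lie near the line.

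Leaving out Met 4 changed the comparison of the methionine groups. Met 4 was set apart by its high values in these same genes, so leaving it out favours such calls and is no independent check. Without it, 11 members were higher in Met-Met than in Met and 0 were lower, where 9.44% of all genes were called higher and 10.1% lower. These were Hspa5 (1.17 ± 0.14, adjusted p = 9.09e-04), Calr, Dnajb11, Dnajc3, Creld2 (0.92 ± 0.17, adjusted p = 0.00547), Manf, Pdia3, Pdia4, Syvn1 (0.98 ± 0.12, adjusted p = 0.00105), Derl1 and Spcs3 (0.78 ± 0.09, adjusted p = 9.09e-04). Against Control, 15 members rose in Met 1 to 3 (14.8% of all genes) and Syvn1 fell (−0.44 ± 0.12, adjusted p = 0.0192; 15.5% of all genes fell), and 25 rose in Met-Met (12.4%). For 15 of the 36 members, Met 1 to 3 all lay below every Met-Met library, against 15.1% of all genes. Met 4 is one of the 6 libraries with B cell markers and one of the 3 with high Gm26917, and its luminal epithelium mean of 6.08 was the lowest of the 12. Among the libraries with B cell markers, Hspa5 was at 405 and 449 in Met-Met 1 and 3, 488 in Met 4 and 178 to 264 in Control 1 to 3. Among those without, it was at 388 and 418 in Met-Met 2 and 4, 163 to 199 in Met 1 to 3 and 180 in Control 4. Plasma cells, which also carry much ER, had a marker mean over 8 genes of 2.4 in Met 4, within the 1.35 to 2.91 of the other libraries. The part of these marker levels in the Met 4 values was not tested.

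The promoter elements shown above were set beside the Met 4 ratios. Of the 11 members with ERSE or ERSE-II, 8 were more than 1.5 times higher in Met 4 than the median of Met 1 to 3, with a median ratio of 1.84. Of the 17 members with a promoter and neither element, 4 were (Sdf2l1, Pdia3, Pdia4 and Spcs2), with a median ratio of 1.12. Of the 8 members without a promoter sequence, 3 were (Manf, Hyou1 and Spcs3), with a median ratio of 1.28. Over all genes tested, 10.9% were. The calls against Control were spread over both kinds: 7 of 11 with an element rose in Met-Met and 5 in Met, and 10 and 11 of the 17 without. The elements were looked up with these values known, and Met 4 was set apart by its high values in these same genes. No test was made.

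Ratios of 2 members within a library need no scaling between libraries, and were formed after the values were seen, so they are given without a test. Hspa5 over Hsp90b1 was 0.865, 1.01, 0.926 and 1.09 in Met-Met, 0.625, 0.475, 0.691 and 0.831 in Met, and 0.986, 1.06, 1.05 and 0.949 in Control. All 4 Met libraries, Met 4 included, were below all others. Sdf2l1 over Hspa5 was 0.153, 0.107, 0.121 and 0.113 in Met-Met, 0.206, 0.304, 0.226 and 0.145 in Met, and 0.0672, 0.0674, 0.0806 and 0.0679 in Control. Control was lowest throughout, Met 1 to 3 were highest, and Met 4 lay within the Met-Met range. Syvn1 over its partner Sel1l was 1.2, 1.25, 0.872 and 1.61 in Met-Met, 0.482, 0.687, 0.708 and 1.23 in Met, and 1.28, 1.21, 1.3 and 1.36 in Control. Met 1 to 3 were again below every other library, with Syvn1 as uncertain as above. Other ratios formed did not set Met apart. Manf over Hyou1 was 0.847 to 1.42 in Met-Met, 0.689 to 1.2 in Met and 1.49 to 1.93 in Control, so both methionine groups were below Control. Creld2 over Hyou1 and Derl3 over Derl1 overlapped among the 3 groups. In Met 1 to 3, 13 members were above every Control library (18.8% of all genes): Hyou1, Calr, Canx, Dnajb11, Sdf2l1, P4hb, Pdia6, Xbp1, Sec61b, Sec61g, Ssr4, Spcs1 and Sec11c. In the same libraries Creld2, Manf and Herpud1 were within the Control range and Hspa5 within or below it.

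**Figure D5:**
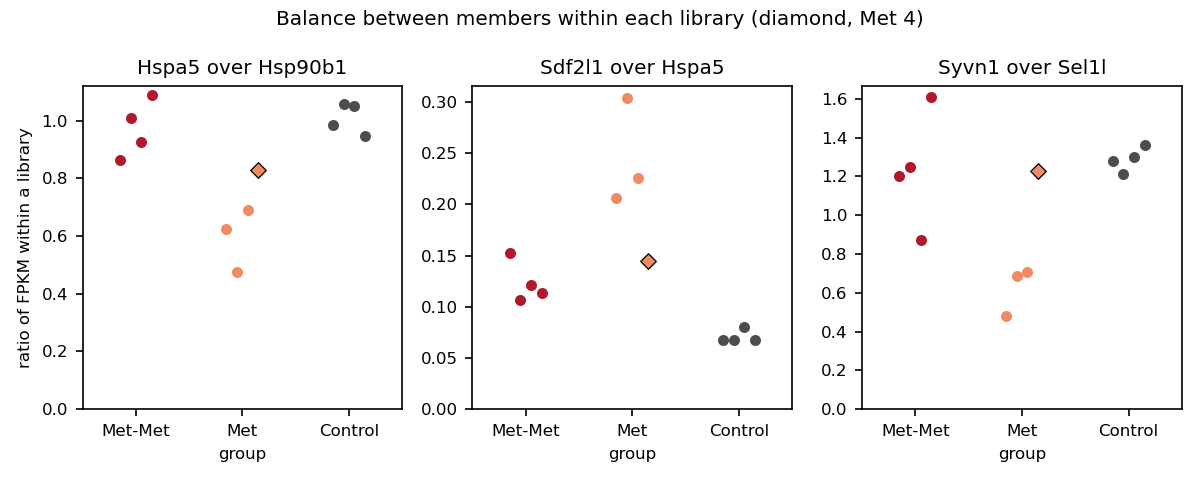
Ratio of the FPKM of 2 ER genes within each library (vertical axis) by group, for Hspa5 over Hsp90b1, Sdf2l1 over Hspa5, and Syvn1 over Sel1l, with Met 4 as a diamond. The Met points for Hspa5 over Hsp90b1 (0.475 to 0.831) lie below the Met-Met (0.865 to 1.09) and Control (0.949 to 1.06) points.

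Other genes of the pathway were read from lists chosen by known role. The PERK branch acts through ATF4, which also answers to amino acid shortage without PERK, so its genes are not a readout of PERK alone. Of 10 genes listed for this branch, 1 rose in Met-Met (the member Dnajc3) and 4 in Met, beside 10.8% and 13.6% of all genes. Trib3 and Nck1 were lower in Met-Met than in Met (5.66% of all genes). Trib3, a pseudokinase induced by ATF4, was at 7.81, 6.72, 18.3 and 6.47 in Met-Met, 25.5, 19.6, 22.9 and 46.7 in Met, and 3.22, 3.66, 4.5 and 6.99 in Control. It rose in Met (2.37 ± 0.33, adjusted p = 6.42e-04), and Met-Met was below Met in every library (−1.5 ± 0.33, adjusted p = 0.0153). Atf4 itself rose in Met (0.72 ± 0.23, adjusted p = 0.0355), as did Chac1, which degrades glutathione (2.03 ± 0.61, adjusted p = 0.0281), and Ppp1r15b, which restores translation (0.4 ± 0.12, adjusted p = 0.0268). Met 2 lay within the Control range for Atf4 (70.5, Control 56.4 to 77.6) and for Ppp1r15b (36.1, Control 30.9 to 36.5). Ddit3, the stress transcription factor CHOP, was at 4.19, 4.28, 8.11 and 5.3 in Met-Met, 13.8, 4.8, 7.48 and 29.1 in Met, and 4.9, 5.0, 4.4 and 4.26 in Control, and was not called in Met (1.11 ± 0.39, adjusted p = 0.0524). Chac1 at 57.1, Atf4 at 166, Ppp1r15b at 50.7, Ddit3 and Trib3 were all highest in Met 4. The kinase gene Eif2ak3 was not called in either group (adjusted p = 0.15 and 0.214).

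The oligosaccharyltransferase and the glycan cycle, which attach and trim N-glycans, were also higher: 13 of 17 genes rose in Met-Met and 11 in Met, and 0 fell, with medians of 0.52 and 0.37. Dad1, a subunit of the transferase, was at 87.1, 81.7, 66.4 and 84.6 in Met-Met, 73.8, 90.9, 76.9 and 81.3 in Met, and 46.9, 48.4, 59.0 and 55.7 in Control, with no overlap (0.6 ± 0.11, adjusted p = 0.00383, in Met-Met and 0.61 ± 0.11, adjusted p = 0.00217, in Met). Signal recognition and other translocation genes rose for 10 and 9 of 18 entries, 2 of them near-identical copies whose reads cannot be told apart with certainty. Tram1, which helps nascent chains into the channel, rose in both groups (0.67 ± 0.13, adjusted p = 0.00443, in Met-Met and 0.54 ± 0.13, adjusted p = 0.00871, in Met). Other ER oxidoreductases rose for 6 of 16 genes in each group, and Tmx4 fell in Met. Ero1l, the oxidase that drives disulfide formation, was not called (adjusted p = 0.334 and 0.219). Of 20 other degradation genes, 5 rose in Met-Met and 8 in Met. Of 10 further sensor and processing genes tested, 1 rose in each group, Creb3 both times. Of all genes tested, 10.8% rose in Met-Met, and 13.6% rose and 14.8% fell in Met. The count for these sensor genes lay near those shares.

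Export from the ER carries folded cargo onward. Of 21 genes of COPII vesicles and cargo receptors, 10 rose in Met-Met and 0 fell (10.8% and 9.4% of all genes). In Met, 4 rose and 2 fell (13.6% and 14.8% of all genes). Between the methionine groups, 4 were higher in Met-Met than in Met and 0 lower (5.94% and 5.66% of all genes). Those 4 were Kdelr2, Kdelr3, Sec23a and Sec24c, named because the count is small. Kdelr2, a receptor that returns escaped chaperones such as BiP to the ER, was at 97.1, 82.3, 81.0 and 87.5 in Met-Met, 60.6, 57.3, 53.8 and 78.3 in Met, and 50.6, 50.8, 61.3 and 55.7 in Control. Every Met-Met library was above every other library, with log2 fold changes of 0.66 against Control (adjusted p = 0.00321) and 0.48 against Met (adjusted p = 0.022). Vcp, the ATPase that pulls misfolded chains out of the ER membrane, was singled out after its values were seen, at 76.6, 73.2, 72.8 and 77.6 in Met-Met, 52.5, 46.7, 44.6 and 63.1 in Met, and 50.2, 51.2, 58.1 and 46.3 in Control. It too was higher in every Met-Met library than in any other (0.54 against Control, adjusted p = 0.00557, and 0.54 against Met, adjusted p = 0.00906). In the same list Ngly1, which strips glycans from exported chains, was lower in Met-Met than in Met (−0.34, adjusted p = 0.0154). Cytosolic and mitochondrial chaperones rose for 4 of 18 genes in each group (10.8% of all genes in Met-Met, 13.6% in Met). The mitochondrial Hspa9 and Hspd1 were among the 4 both times. Hspa1b, a cytosolic Hsp70, fell in Met (−0.48, adjusted p = 0.0419).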

How the data were processed

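RNA abundance was deposited per library as tables of protein-coding transcripts. The authors' values are FPKM, going by the names of the deposited workbooks and the values themselves; StringTie 1.3.1, Bowtie2 2.2.8 and HISAT2 2.0.4 are listed in the submitters' processing notes, as are both mm9 and GRCm38, without roles, and other steps are not given in the sources used here. The deposited FPKM did not step in whole reads, so depth is unknown and no counting interval is given. FPKM was summed per gene (55869 transcripts, 21956 genes), and libraries were scaled by the median, over genes, of their ratio to the average library. The 11809 genes that averaged 1 FPKM or more were fitted with limma 3.58.1 (R 4.3.3, intensity trend) on log2(FPKM + 1), as 3 group means over 12 libraries, with Benjamini-Hochberg adjustment over all of them and a threshold of 0.05. The script was tested on simulated data. Groups came from the labels.

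The members and gene lists were chosen with earlier results of these data known. All 36 members are accounted for. Values in every library are given for up to 5 called members per role whose groups did not overlap, ordered by p in Met against Control, and for Hspa5, Xbp1, Atf6, Ern1, Sec61a1 and Dnajb9; from each further list up to 4 genes of smallest p, and Eif2ak3, Ddit3, Atf4, Ppp1r15a, Ero1l and Atf6b, could be named. Others were singled out after their values were seen, including Hsp90b1, Creld2, Manf, Herpud1, Syvn1, Vcp and the export genes. In all, 30 alternatives were run, 1 of them (milk proteins as a covariate) chosen after seeing the data.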

Additional observations from a re-analysis of the deposited data

Results flagged for a closer look

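Within each group of 4 libraries, the gap between the most extreme library and its nearest neighbour was divided by the group's range, and values above Dixon's critical value for 4 samples were noted for 17 of 108 member groups. Chance gives about 1 in 20 groups, and over all genes tested the shares were 6.03% in Met-Met, 5.91% in Met and 6.18% in Control.

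In 10 of the 17, Met 4 was the high library: Spcs2 (0.986), Creld2 (0.978), Dnajc3 (0.964), Spcs3 (0.95), Derl2 (0.942), Herpud1 (0.933), Hspa5 (0.888), Syvn1 (0.879), Manf (0.873) and Atf6 (0.842). Met 4 was so for 27.8% of the members and 2.43% of all genes tested. In Met, Sec11c was set apart by a high Met 2 (0.863), Sec61b by a low Met 1 (0.84) and Ssr2 by a low Met 3 (0.832). In Met-Met, Canx had a high Met-Met 1 (0.848). In Control, Hsp90b1 (0.859) and Calr (0.834) had a high Control 3, and Dnajb9 (0.842) a low Control 4. Control 3 is one of the libraries with B cell markers, whose part in these values was not tested.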

How the results depend on the processing

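Of the members called higher in each comparison, 18 of 22 in Met-Met against Control, 13 of 19 in Met against Control and 0 of 1 in Met-Met against Met stayed called on leaving out any single library. Leaving out 1 library gave 18 to 25 members higher and 0 lower, 13 to 20 higher and 0 to 1 lower, and 0 to 11 higher and 0 to 1 lower in the same order. Over all genes the counts higher were 722 to 1462, 1014 to 1743 and 327 to 1115. For Met-Met against Control, counts moved by over 1.5 times only without the 6 lymphocyte libraries (0) and with the adipocyte covariate (0). For Met against Control they moved to 8 higher and 1 lower (Edem1) with FPKM as deposited, to 0 higher without the 6 lymphocyte libraries, to 4 higher with the adipocyte covariate, and to 1 lower without the 3 libraries high in Gm26917. For Met-Met against Met the count of members higher was 5 as deposited, 3 with quantile normalization and 2 at a mean of at least 5 FPKM. Over all genes tested the counts were 1556, 678 and 538. The member count was 0 with only the 8 libraries, 8 with quality weights and 10 with the luminal covariate. All genes gave 380, 1054 and 1275. Without the 3 libraries the member count was 6, beside 417 of all genes. The count lower was 1 with quantile normalization, without the 3 libraries and with the luminal covariate, beside 577, 493 and 1411 of all genes. The causes were not tested. FPKM as deposited shifted the median of all genes by −0.12, −0.25 and 0.15, beside member medians of 0.51, 0.22 and 0.38. Replicate numbers did not pair the libraries (1 of 12 pairs over 0.1, r from −0.41 to 0.17), and 1 library correlated best with its own number. The replicate block gave 19, 14 and 1 member calls higher, beside 908, 1154 and 451 of all genes. Over single members, 229 values lost a call, 88 gained one and 45 of those never called moved by over 1 SD; 115 turned sign, 0 of them called in either fit. Depth is unknown, and 4 libraries a group limit the precision.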

Other observations

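The summed share of the 11 chaperones in all FPKM was 0.389%, 0.32%, 0.394% and 0.319% in Met-Met, 0.203%, 0.197%, 0.147% and 0.381% in Met, and 0.207%, 0.204%, 0.206% and 0.164% in Control. Met 4 alone of the Met libraries lay in the Met-Met range. The share of the 4 isomerases was 0.143% to 0.176% in Met-Met, 0.0966% to 0.15% in Met and 0.0945% to 0.105% in Control. These shares, too, are lowered by a larger milk protein part of the sum, which was on average largest in Met.

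Outside the members, 28 other genes with the ERSE letters in their promoter were looked up after the members were seen, and 6 of them passed the minimum level. None of the 6 rose in limma's test against Control, and 1 fell in both methionine groups: Adcy3, an adenylyl cyclase, by −0.44 in Met-Met (adjusted p = 0.0279) and −0.47 in Met (adjusted p = 0.0151). Their median log2 fold changes were 0.04 in Met-Met against Control, −0.1 in Met against Control and 0.1 in Met-Met against Met.

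Kdelr3, another KDEL receptor, was at 9.3, 8.08, 5.6 and 7.29 scaled FPKM in Met-Met, 4.31, 3.8, 3.6 and 5.95 in Met, and 3.65, 3.37, 4.6 and 4.42 in Control, with Met 4 the 1 library of Met above the lowest Met-Met library.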
